A study of Drosophila melanogaster with 90 samples.

Results

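The 3 yolk protein genes Yp1, Yp2 and Yp3 and the yolk receptor gene yl (yolkless) were followed across 30 genotypes of Drosophila melanogaster ovaries in which the gene sov (small ovary) was mutated, depleted by RNAi or left intact. The members were taken as the count rows of these 4 genes, by their FlyBase identifiers, out of 17493 genes counted in each of 90 libraries. All 4 lie on the X chromosome in the BDGP6 (release 6) annotation. Yp1 (FBgn0004045) occupies 10053811 to 10055498 on the plus strand, and Yp2 (FBgn0005391) occupies 10050951 to 10052636 on the minus strand, so the pair is read outwards from a gap of 1174 bp. Yp3 (FBgn0004047) lies apart from them at 13759546 to 13761547 on the plus strand. The receptor gene yl (FBgn0004649) runs from 14193214 to 14199958 on the plus strand and its joined exons measure 6351 bases, against 1611, 1618 and 1868 bases for Yp1, Yp2 and Yp3. Each gene has 2 annotated transcripts, and all values here are counts per gene, not per transcript. An annotated antisense RNA, asRNA:CR45601, shares 875 exon bases with Yp1 and had 1871 counts over all libraries together. Since the strand setting of the counting is not given in the sources used here, reads of that stretch may have been left out or assigned to either gene.

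The yolk proteins are the main store of nutrients in the fly egg, and they are related to lipases, not to the vitellogenins of vertebrates. They are made in the fat body, which secretes them into the hemolymph, and in the follicle cells that surround the growing oocyte during the middle stages of oogenesis. Yolkless, a receptor of the low-density-lipoprotein receptor family, is made by the germline, is displayed on the oocyte surface in those stages, and brings the yolk proteins in by clathrin-mediated endocytosis. RNA taken from ovaries therefore reports yolk protein transcripts made in the ovary, plus those of any fat body carried along in the dissection, and no protein taken up from outside.

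Each of the 30 genotypes had 3 libraries. The 7 sterile mutants were the homozygote NP6070/NP6070, 3 genotypes with sov2 (sovML150/sov2, sovEA42/sov2 and Dfsov/sov2) and 3 with KG00226 (sovML150/KG00226, sovEA42/KG00226 and Dfsov/KG00226). The 7 fertile mutants were KG00226/KG00226, KG00226/NP6070, NP6070/KG00226, KG00226/sov2, sov2/KG00226, NP6070/sov2 and sov2/NP6070, the last 6 being the same 3 allele pairs written in both orders. The 10 controls were w1118/w1118 and 9 heterozygotes with 1 sov allele over w1118, namely Dfsov/w1118, sovEA42/w1118 and sovML150/w1118, and KG00226, NP6070 and sov2 in either order. Dfsov is the deficiency Df(1)sov, and its chromosome and that of sovML150 carry the w1118 allele as the controls do. The sov2 chromosome carries y[1], cv[1], v[1] and f[1] besides sov[2]. KG00226 is a P{SUPor-P} insertion on a y[1] chromosome, and NP6070 is a P{GawB} insertion on a y[*] w[*] chromosome. Because sov and all 4 yolk genes are on the X, every sov allele came with the yolk genes of its own chromosome, and the effect of the allele and that of the chromosome cannot be told apart.

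In the other experiment, a hairpin against sov (TRiP.HMC04875, inserted at attP40; sterile) was set against a hairpin to mCherry, a fluorescent protein that flies lack (VALIUM20-mCherry, at attP2; fertile). Each hairpin was expressed with 3 drivers, the ubiquitous GAL4-da.G32 (here da-Gal4), the germline driver GAL4::VP16-nos.UTR (nos-Gal4) and NP1624, which drives in the ovarian soma (tj-Gal4). The hairpins sit at different sites in different stocks, so stock and knockdown cannot be told apart there. All females were 4 to 5 days old and reared at 25 °C, and 15 ovaries made up a sample. Nothing in the labels says that the libraries of a genotype came from separate crosses, so tests over libraries measure the spread between these samples only.

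Sums of gene counts ran from 2110 to 13164806 per library (median 4346724.5). Only 3 libraries held under 100000, namely sov2/w1118 replicate 1 (2110), Dfsov/sov2 replicate 3 (16486) and sovML150/KG00226 replicate 2 (49795), while the next held 932267. The transcript of sov itself was not called in sterile mutants against controls (0.46 ± 0.20 on the log2 scale, edgeR adjusted p = 0.0728), and it checked the RNAi labels in part. Under da-Gal4 it had 122, 126 and 137 CPM (the usual share of library counts, here with library sizes scaled by the TMM method) in sov RNAi ovaries, against 186, 154 and 202 CPM in mCherry RNAi ovaries. It fell by 0.49 ± 0.12 on the log2 scale with da-Gal4 (edgeR adjusted p = 0.00634), did not pass with nos-Gal4 (0.06, adjusted p = 0.907), and rose by 0.50 ± 0.11 with tj-Gal4 (adjusted p = 0.00501). Per 100 counts of the ERCC spike-in RNA, sov stood with tj-Gal4 at 63.5, 84.1 and 72.3 in sov RNAi ovaries, against 110, 170 and 118 in mCherry RNAi ovaries, so its direction there depends on the scale. Each library had spike-in pool 78A or 78B, and the pools were spread unevenly over genotypes. All tj-Gal4 sov RNAi libraries had 78A, for example, and all sovML150/KG00226 libraries 78B. Among controls the spike-ins took a median of 0.0181% of the counts with 78A and 0.014% with 78B. Over both pools they took a median of 0.0528% of the counts of sterile mutants, against 0.0151% in controls. Values below are therefore shares of the RNA in a library. On the spike-in scale the median of all features moved by -1.33 on the log2 scale in sterile mutants against controls and by 0.39 in fertile mutants against controls, and shifts of the members on that scale are to be read against these. In whole-ovary RNA, fewer cells of a type and less RNA per cell cannot be told apart.

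In unmutated w1118/w1118 ovaries the yolk protein genes were transcribed far above the receptor. Per kilobase of joined exons, Yp2 stood at 3661 ± 565 RPKM, Yp1 at 2681 ± 640 RPKM, Yp3 at 1411 ± 233 RPKM and yl at 376 ± 31.9 RPKM (SD, n = 3). This order, Yp2 above Yp1 above Yp3 above yl, also held for the medians of the sterile, fertile and control classes. Yp2 had a median of 932 RPKM in sterile mutants, 2055 in fertile mutants and 3470 in controls. Yp1 had medians of 779, 1794 and 2653 RPKM in the same order of classes, and Yp3 had 267, 683 and 1035 RPKM. The receptor had medians of 235 RPKM in sterile mutants, 312 in fertile mutants and 357 in controls. In RNAi ovaries the median of Yp1 stood above that of Yp2, at 2265 and 1829 RPKM over the sov RNAi genotypes and 1755 and 1694 RPKM over the mCherry RNAi genotypes. This did not hold with nos-Gal4. There Yp1 and Yp2 had means of 2803 and 2812 RPKM in sov RNAi ovaries and of 2466 and 2650 RPKM in mCherry RNAi ovaries. The 3 yolk protein genes together made up 0.103% to 0.723% of all gene counts in sterile mutants (median 0.377%), 0.537% to 0.824% in fertile mutants (0.766%) and 0.626% to 1.67% in controls (1.105%). When all 30 genotypes were put in order of their mean CPM, the libraries of neighbouring genotypes overlapped in 28 of 29 steps for Yp1 and for Yp2, in 26 of 29 for Yp3 and in 27 of 29 for yl. Neighbours in that order thus seldom differed beyond the spread of their libraries, as sorting 30 groups of 3 libraries by their means makes likely, and the order is given as a description.

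**Figure D1:**
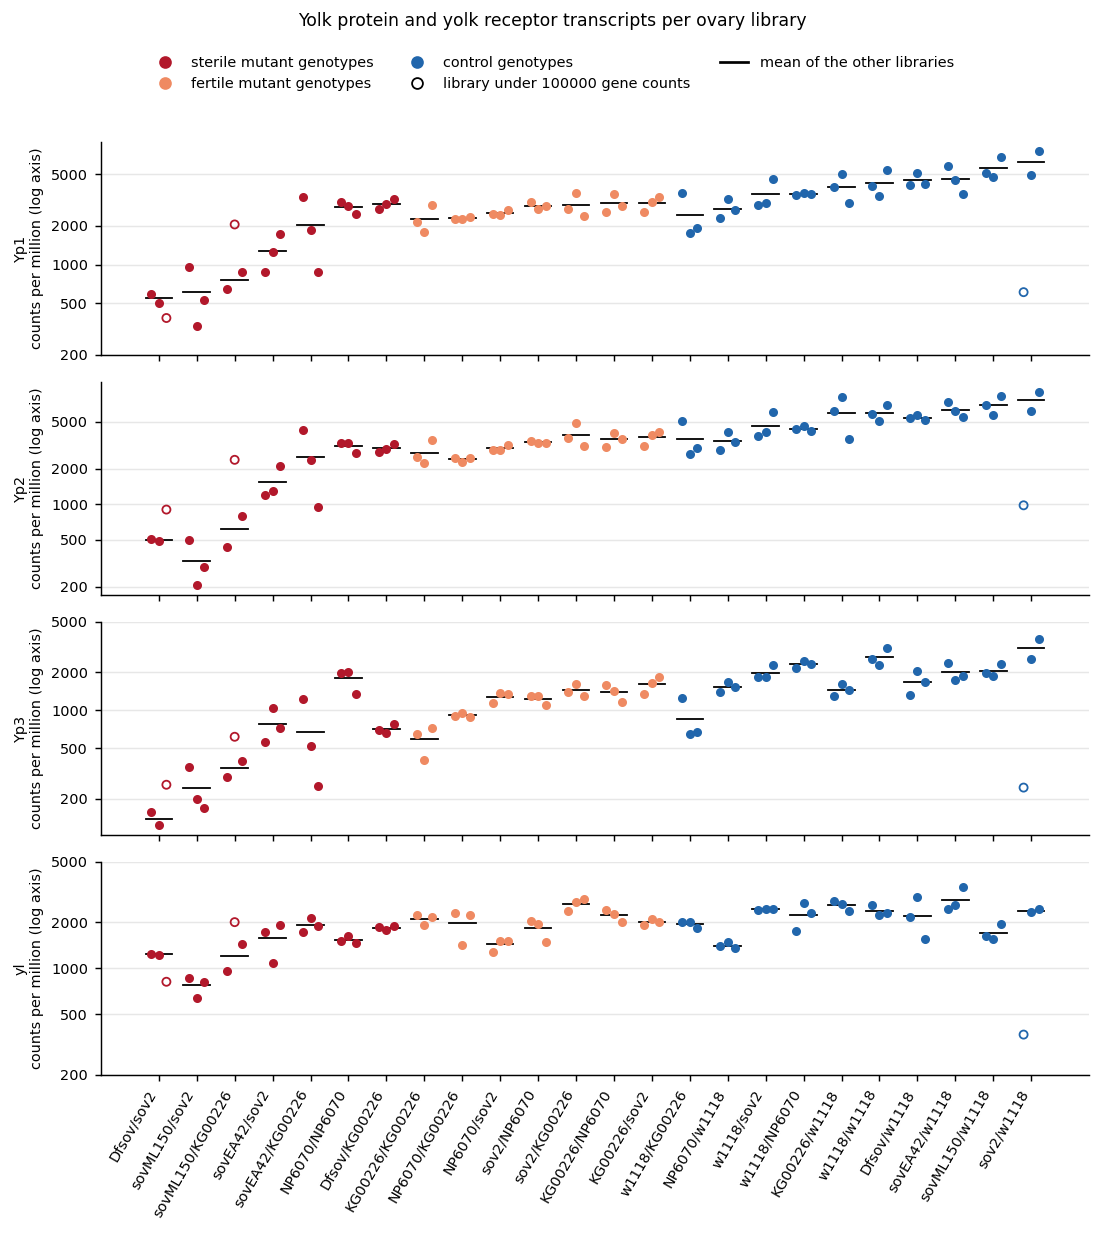
Level of Yp1, Yp2, Yp3 and yl in every library of the 24 mutant and control genotypes, in TMM-scaled CPM on a log axis, with sterile mutants on the left, fertile mutants in the middle and controls on the right; hollow points are the 3 libraries under 100000 counts and the black lines are means of the other libraries. Among the filled points Yp1 spans 333 to 3316 CPM in sterile mutants and 1745 to 7619 CPM in controls. The filled points of yl span 641 to 2139 CPM and 1354 to 3422 CPM.

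The study set sterile mutants against controls to find what goes wrong in ovaries that lack sov function. All 3 yolk protein genes and the receptor were lower in sterile mutants. Over the genotypes (counts of 3 libraries summed), Yp1 ran from 503 through a median of 1255 to 2969 CPM in the 7 sterile mutants, against 2264, 4273 and 6611 CPM in the 10 controls. Yp2 ran from 280 through 1509 to 3001 CPM in sterile mutants, against 3361, 5614 and 7921 CPM in controls. For Yp2 the genotype sums of the 2 classes did not overlap in CPM, and for Yp1 the highest sterile genotypes reached into the lower controls. Single Yp2 libraries did overlap, reaching up to 4221 CPM in sterile sovEA42/KG00226 and down to 2683 CPM in the control w1118/KG00226. Yp1 fell by 1.46 ± 0.30 on the log2 scale, to 0.363 of the control level (edgeR adjusted p = 0.000444), and Yp2 fell by 1.77 ± 0.36, to 0.293 (adjusted p = 0.000337).

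Yp3, the third yolk protein gene, ran from 139 through 500 to 1687 CPM in sterile mutants, against 806, 1934 and 3262 CPM in controls. The classes overlapped through NP6070/NP6070, the highest sterile genotype, and w1118/KG00226, the lowest control. Yp3 fell by 1.64 ± 0.38 (edgeR adjusted p = 0.00122). The receptor gene yl ran from 748 through 1495 to 1975 CPM in sterile mutants, against 1392, 2265 and 2750 CPM in controls, and most sterile genotypes lay within the range of the controls. It fell by 0.58 ± 0.16, to 0.671 of the control level (adjusted p = 0.00599). Of the 8449 features tested in this comparison, 19.8% were called lower and 24.6% higher, so 4 of 4 members were called where about 1 feature in 5 was. All 4 calls held when any single genotype was left out, with adjusted p at most 0.00137 for Yp1, 0.00101 for Yp2, 0.00371 for Yp3 and 0.0154 for yl. Scaled to the spike-ins the changes were -2.36, -2.64, -2.41 and -1.81, beyond the all-feature median of -1.33 in each case.

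The sterile genotypes differed widely among themselves. The lowest yolk protein levels were in Dfsov/sov2 and sovML150/sov2. In sovML150/sov2, Yp1 had 963, 333 and 535 CPM and Yp2 had 497, 207 and 295 CPM, against 4079, 3429 and 5449 CPM of Yp1 and 5819, 5065 and 6884 CPM of Yp2 in w1118/w1118. No library of sovML150/sov2 came near those of w1118/w1118. Set against the mean of the 10 controls over single libraries, Yp2 in sovML150/sov2 fell by 3.98 ± 0.38, to 0.0632 of the control level (edgeR adjusted p = 1.39e-13). Yp3, Yp1 and yl fell as well, with changes of -2.98 ± 0.30, -2.71 ± 0.33 and -1.49 ± 0.18, where 29.8% of all features were called lower. The yl fall there was the deepest among the 14 mutants, with 870, 641 and 819 CPM in sovML150/sov2, against 2622, 2253 and 2291 CPM in w1118/w1118.

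In Dfsov/sov2, Yp1 had 589, 508 and 386 CPM, Yp2 had 508, 487 and 902 CPM, and Yp3 had 156, 123 and 258 CPM, the last value of each from the library with 16486 counts. Yp3 fell furthest of the members there, by 3.70 ± 0.36, to 0.0768 of the control level (edgeR adjusted p = 2.66e-13), followed by Yp2 (-3.27 ± 0.40), Yp1 (-2.91 ± 0.36) and yl (-0.91 ± 0.18), with 26.0% of all features called lower. Without the 3 shallow libraries these changes were -3.76, -3.43, -2.89 and -0.84, and all stayed called. In sovML150/KG00226 the library with 49795 counts stood apart from the other 2. Its Yp1 level of 2048 CPM compared with 645 and 872 CPM in the others, and its yl level of 2010 CPM with 956 and 1443 CPM. With it, the changes of Yp1, Yp2, Yp3 and yl were -1.90, -2.35, -2.26 and -0.64, where 24.1% of features were called lower. Without it, they were -2.41, -3.10, -2.43 and -0.88, and all were called in both fits.

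The sovEA42 genotypes had intermediate levels with wide spread. In sovEA42/KG00226, Yp1 had 3316, 1856 and 874 CPM, so that its libraries spread widely, and Yp3 had 1234, 526 and 250 CPM in the same libraries. Yp1 fell by 0.97 ± 0.28, Yp2 by 1.05 ± 0.30 and Yp3 by 1.48 ± 0.26 (edgeR adjusted p = 0.00404, 0.00359 and 4.11e-06), while yl at -0.18 ± 0.16 did not pass, with 19.5% of features called lower. In sovEA42/sov2 all 4 members fell, with changes of -1.63, -1.77, -1.27 and -0.47 for Yp1, Yp2, Yp3 and yl and with 19.9% called lower.

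The remaining sterile genotypes kept more of the yolk protein transcripts. In Dfsov/KG00226, Yp1 had 2690, 2955 and 3214 CPM and its change of -0.41 ± 0.27 did not pass (edgeR adjusted p = 0.214). Yp2 fell by 0.79 ± 0.29 and Yp3 by 1.37 ± 0.26 in that genotype (adjusted p = 0.0242 and 1.57e-05), whereas yl was at -0.23 ± 0.16 and did not pass, and 20.7% of features were called lower. In the homozygote NP6070/NP6070, yl fell by 0.49 ± 0.16 (adjusted p = 0.0202), while Yp1 (-0.48 ± 0.27), Yp2 (-0.72 ± 0.29, adjusted p = 0.0569) and Yp3 (-0.03 ± 0.23) did not pass, with 12.7% of features called lower. The sizes for Yp1 and Yp2 were no smaller than that of yl within their errors. Yp2 passed without the shallow libraries (-0.75, adjusted p = 0.0121) and with no low-count filter (adjusted p = 0.0195), and the yl call was lost on the spike-in scale (-0.59, adjusted p = 0.793). Its Yp3 libraries, at 1988, 2028 and 1358 CPM, lay among those of the controls.

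**Figure D2:**
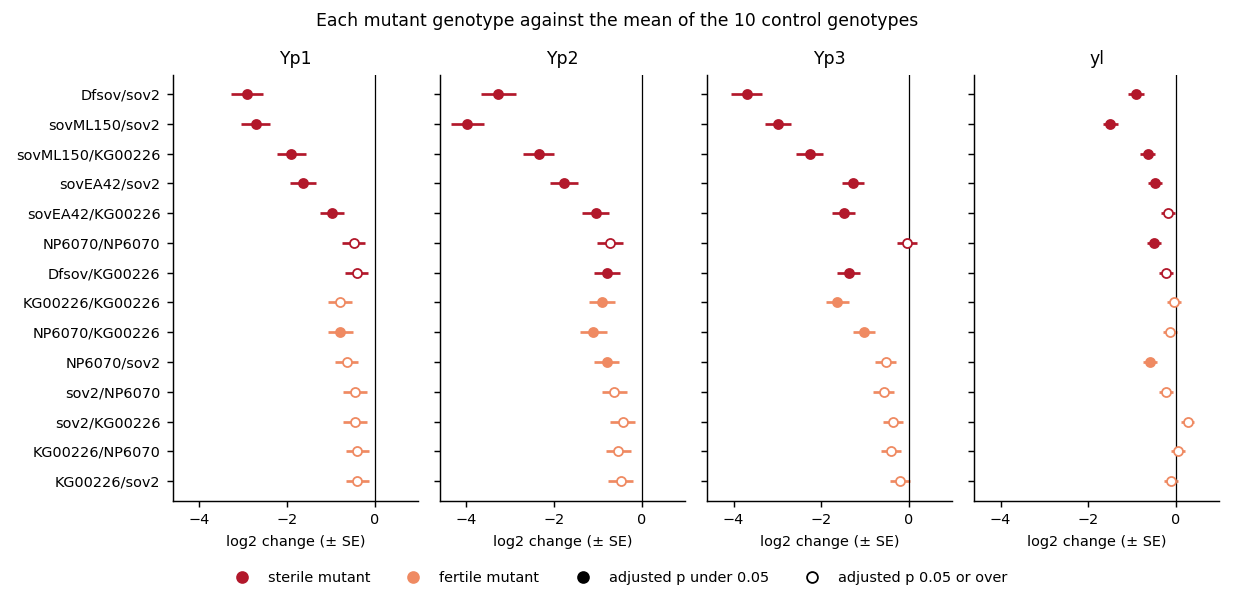
Log2 change of each member in the 14 mutant genotypes, sterile first, against the equal-weight mean of the 10 control genotypes, with standard errors from the edgeR fit; filled points passed an adjusted p of 0.05. Yp2 in sovML150/sov2 lies lowest at -3.98, and yl stays between -1.49 and 0.28 throughout.

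Counted over the sterile genotypes, Yp1 fell in 5 of 7, Yp2 in 6, Yp3 in 6 and yl in 5, or 22 of 28 tests. Over the fertile genotypes the counts were 1, 3, 2 and 1 of 7, or 7 of 28 tests. No member was called higher in any of the 14 mutants on the TMM scale. On the spike-in scale 22 of 28 tests were called lower in sterile mutants but 1 of 28 in fertile mutants, that of Yp3 in KG00226/KG00226. Most features moved there, and 7600 of 8449 were called in either direction between the sterile and control classes. Medians of all features in single genotypes ran from -2.53 to 0.88 on that scale. The sterile calls include yl in sovEA42/KG00226, at -1.61 beside a median of -1.48, so their count does not set the members apart from other features. The receptor was called higher on that scale in KG00226/NP6070 (0.93, adjusted p = 0.0204), where the median of all features was 0.88. Without the shallow libraries on the TMM scale, 23 tests were called lower in sterile mutants and 10 in fertile mutants. On the TMM scale with all libraries, the share of all features called lower ran from 2.15% to 29.8% over these genotypes, with a median of 13.5%. The share called higher ran from 4.35% to 34.0%.

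The deficiency, sovEA42 and sovML150 were each combined with sov2 and with KG00226, which sets those alleles side by side over the same partner. These contrasts were chosen after the values were seen. Averaged over the 3 partners, the sov2 genotypes differed from the KG00226 genotypes by -1.32 ± 0.21 for Yp1, -1.61 ± 0.23 for Yp2, -0.95 ± 0.19 for Yp3 and -0.61 ± 0.13 for yl on the log2 scale, all called lower, where 19.6% of features were called lower. Over the deficiency, Yp1 had 589, 508 and 386 CPM in Dfsov/sov2, against 2690, 2955 and 3214 CPM in Dfsov/KG00226. The libraries were far apart, and all members were lower, with differences of -2.50 for Yp1, -2.48 for Yp2, -2.34 for Yp3 and -0.68 for yl (edgeR adjusted p = 9.74e-07, 4.67e-06, 9.46e-07 and 0.0109; 19.0% of features called lower). Over sovML150, Yp2 (-1.64) and yl (-0.86) were lower (adjusted p = 0.00424 and 0.0059; 7.75% called lower), while Yp1 at -0.81 and Yp3 at -0.72 did not pass. Without the shallow libraries the Yp2 difference was -0.93 (adjusted p = 0.0445), that of yl -0.64 (adjusted p = 0.0172), that of Yp1 -0.34 (adjusted p = 0.502) and that of Yp3 -0.58 (adjusted p = 0.207). Over sovEA42 none of the members was called, with differences of -0.66, -0.72, 0.21 and -0.29 for Yp1, Yp2, Yp3 and yl and 1.51% of features called lower (edgeR, with none at an unadjusted p under 0.05 either).

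Fertile mutants had lower values than controls for all 4 members, but no member passed in the fit of all 3 classes with edgeR or DESeq2, while 2 of 4 had an unadjusted edgeR p under 0.05. Yp1 ran from 2227 through 2890 to 3014 CPM in the 7 fertile mutants, inside or just below the lower part of the control range given above. Yp2 ran from 2318 through 3325 to 3936 CPM, and its median lay below the lowest control genotype, at 3361 CPM. The changes were -0.63 ± 0.29 for Yp1, -0.76 ± 0.34 for Yp2, -0.69 ± 0.36 for Yp3 and -0.12 ± 0.16 for yl (edgeR adjusted p = 0.267, 0.248, 0.343 and 0.761), with 1.35% of all features called lower. In a fit of the fertile mutants and controls alone, without the more variable sterile class, Yp1 at -0.62 and Yp2 at -0.76 passed (adjusted p = 0.0272 and 0.0087). Single fertile genotypes showed calls of their own. In KG00226/KG00226, Yp3 had 654, 407 and 719 CPM, against 2528, 2266 and 3115 CPM in w1118/w1118, and fell by 1.63 ± 0.26 from the mean of the controls (adjusted p = 4.05e-06; 4.34% of features called lower). Yp2 fell there as well (-0.91, adjusted p = 0.038), while Yp1 did not pass (-0.79, adjusted p = 0.0606). Both sit near the threshold. Yp1 passed at about the same size with DESeq2 size factors, no low-count filter, a spike-in pool term or without the shallow libraries (adjusted p = 0.0426, 0.0178, 0.0484 and 0.0162), and the Yp2 call was lost on the spike-in scale (-0.79, adjusted p = 0.923). In NP6070/KG00226, Yp1, Yp2 and Yp3 fell, with changes of -0.78, -1.10 and -1.01 (12.9% called lower), and in NP6070/sov2, Yp2 (-0.80) and yl (-0.59) fell (14.1% called lower). On the spike-in scale these 5 changes were -0.46, -0.78, -0.66, -0.45 and -0.24 and none was called, with all-feature medians of 0.34 and 0.36 in the 2 genotypes. No member was called in KG00226/NP6070 (2.15% of features called lower), KG00226/sov2 (2.82%), sov2/KG00226 (4.14%) or sov2/NP6070 (6.58%). Some alternatives added calls, namely Yp2 in sov2/NP6070 (-0.65, adjusted p = 0.0458) and Yp1 in NP6070/sov2 (-0.67, adjusted p = 0.0239) without the shallow libraries, and Yp3 in sov2/NP6070 (-0.57, adjusted p = 0.0487) and Yp1 in NP6070/sov2 (-0.64, adjusted p = 0.037) with no low-count filter.

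Between the mutant classes, sterile mutants were lower than fertile mutants for Yp1 (-0.83 ± 0.32), Yp2 (-1.0 ± 0.37) and yl (-0.45 ± 0.17) (edgeR adjusted p = 0.0429, 0.0361 and 0.0446), with 14.3% of all features called lower. Yp3 at -0.95 ± 0.39 did not pass (adjusted p = 0.0611). These calls were marginal. They were lost when any of 9 single genotypes (of 14) was left out for Yp1, 7 for Yp2 and 8 for yl, with adjusted p up to 0.0838, 0.071 and 0.0931, and in the fit of those 2 classes alone. Among the genotypes whose removal ended the call were Dfsov/sov2, sovML150/sov2 and sovML150/KG00226, and removal of NP6070/NP6070 brought Yp3 to -1.45 (adjusted p = 0.00167).

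In flies with a single sov allele, 3 of 36 tests over the 9 heterozygotes were called against w1118/w1118, and all 3 were falls. The share of all features called lower in these heterozygotes ran from 0.105% to 7.42%. Yp3 had 1254, 645 and 677 CPM in w1118/KG00226, against 2528, 2266 and 3115 CPM in w1118/w1118, with no overlap, and fell by 1.62 ± 0.31 (edgeR adjusted p = 0.000596; 1.38% of features called lower). In KG00226/w1118, which carries the same allele written first, Yp3 had 1298, 1627 and 1441 CPM and fell by 0.87 (adjusted p = 0.045; 7.42% called lower). The third call was yl in NP6070/w1118, with 1393, 1487 and 1354 CPM, which fell by 0.76 ± 0.21 (adjusted p = 0.0118; 7.4% called lower). In the other heterozygotes, where no member was called, the share of features called lower was 1.13% for Dfsov/w1118, 1.92% for sovEA42/w1118, 7.21% for sovML150/w1118, 0.234% for sov2/w1118, 1.02% for w1118/sov2 and 0.105% for w1118/NP6070. Of 24 tests between the 6 pairs written in opposite order, 1 was called, again yl in NP6070/w1118, which was lower than in w1118/NP6070 by 0.68 ± 0.21 (adjusted p = 0.0305; 5.98% called lower). The w1118/NP6070 libraries had 1761, 2688 and 2320 CPM of yl, all above those of NP6070/w1118. In the other pairs, where no member was called, the share of features called lower in the genotype written first here was 0.727% for KG00226/NP6070 against NP6070/KG00226, 0.0703% for KG00226/sov2 against sov2/KG00226, 0.0586% for NP6070/sov2 against sov2/NP6070, 1.34% for KG00226/w1118 against w1118/KG00226 and 0.0352% for sov2/w1118 against w1118/sov2.

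The yolk proteins did not fall in a fixed proportion to each other or to their receptor. For each pair of classes, log2 ratios of the summed counts were tested over genotypes by an exact permutation test (two-sided), with p-values adjusted over 18 tests (6 ratios in 3 comparisons). These ratios do not depend on library scaling. The permutation treats genotypes as independent, although they share alleles and some are the same allele pair written in both orders. Leaving out 1 genotype of such a pair keeps the other in the test. Yp2 per Yp1 was -0.06 ± 0.40 in sterile mutants, 0.25 ± 0.11 in fertile mutants and 0.40 ± 0.12 in controls (SD over 7, 7 and 10 genotypes). The difference of sterile mutants from controls was -0.46 (exact permutation p = 0.00036, adjusted p = 0.00324). In counts, there were 1.2 to 1.54 Yp2 per Yp1 in the controls, and sovML150/sov2 had 0.556. The difference of fertile mutants from controls was -0.15 (exact adjusted p = 0.0454), a call that was lost in 12 of 24 repeats with 1 genotype left out.

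Yolk protein per receptor transcript fell as well. Yp2 per yl was -0.26 ± 0.96 in sterile mutants, 0.68 ± 0.25 in fertile mutants and 1.30 ± 0.34 in controls. The difference from controls was -1.57 for sterile mutants (exact permutation adjusted p = 0.00185) and -0.62 for fertile mutants (exact adjusted p = 0.0037), and both calls held with any single genotype left out. Yp1 per yl differed from controls by -1.10 in sterile mutants (exact adjusted p = 0.00532) and by -0.47 in fertile mutants (exact adjusted p = 0.0454, lost in 13 of 24 repeats). Yp3 per yl differed by -1.38 in sterile mutants (exact adjusted p = 0.00963), and at -0.55 in fertile mutants it did not pass (exact adjusted p = 0.0909). There were 0.972 to 4.92 yolk protein counts (of Yp1, Yp2 and Yp3 together) per yl count in sterile mutants (median 2.16), 2.63 to 4.71 in fertile mutants (3.57) and 3.33 to 8.33 in controls (5.025).

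The ratios of Yp3 to Yp1 and of Yp3 to Yp2 did not pass in any class comparison. Yp3 per Yp1 averaged -1.40 ± 0.55 in sterile mutants and -1.12 ± 0.34 in controls, a difference of -0.28 (exact permutation adjusted p = 0.296). Read by allele, and as a description only, Yp3 per Yp1 count ran from 0.242 to 0.541 (median 0.381) in the 10 genotypes with a KG00226 chromosome and from 0.258 to 0.652 (median 0.504) in the 14 without, so the ranges overlapped widely. The lowest value was in Dfsov/KG00226 and the highest in w1118/NP6070. Between sterile and fertile mutants none of the 6 ratios passed, and Yp2 per yl came nearest (-0.95, exact adjusted p = 0.0642).

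**Figure D3:**
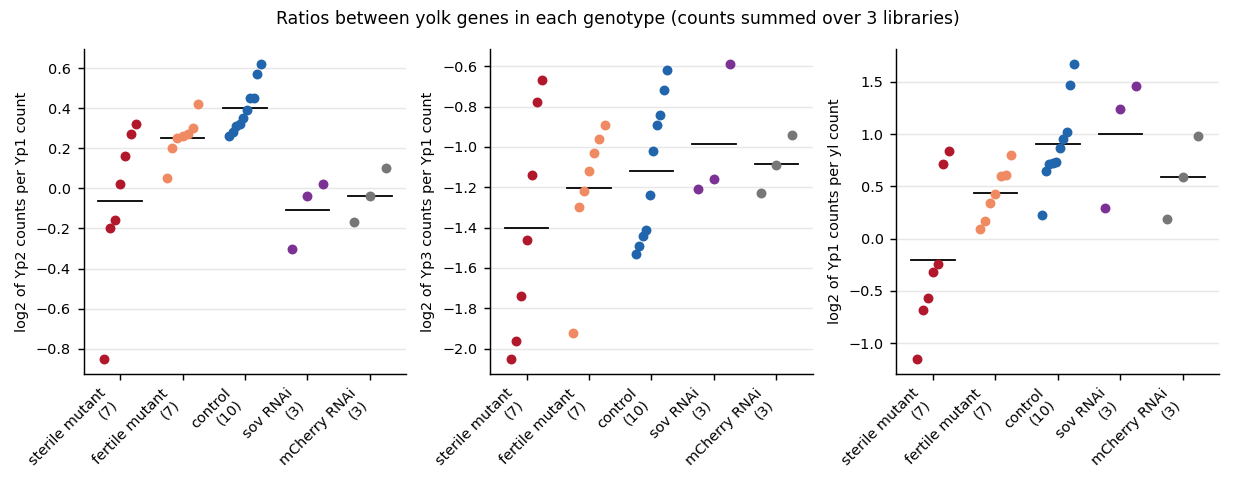
Log2 ratios of summed counts for Yp2 to Yp1, Yp3 to Yp1 and Yp1 to yl, 1 point per genotype, for sterile mutants, fertile mutants, controls, sov RNAi and mCherry RNAi from left to right, with lines at the class means. In the first 3 classes the means of Yp2 to Yp1 stand at -0.06, 0.25 and 0.40 and those of Yp1 to yl at -0.20, 0.43 and 0.90, while the classes overlap for Yp3 to Yp1.

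Knockdown with the 3 drivers asked in which cells the loss of sov acts. With da-Gal4 the receptor fell and the yolk protein genes did not. The receptor gene yl had 1111, 1611 and 1575 CPM in sov RNAi ovaries, against 1920, 2109 and 2737 CPM in mCherry RNAi ovaries, with no overlap. It fell by 0.65 ± 0.15 (edgeR adjusted p = 0.00464; 11.0% of all features called lower). Yp1 had 3586, 3658 and 4121 CPM in sov RNAi ovaries, against 3511, 2228 and 1912 CPM in mCherry RNAi ovaries. Every sov RNAi library was above every mCherry RNAi library, but the difference of 0.58 ± 0.27 did not pass (adjusted p = 0.125). Without mCherry RNAi replicate 1 it was 0.87 and passed (adjusted p = 0.0266). Yp3, at 1440, 2091 and 1438 CPM in sov RNAi ovaries, against 1343, 1241 and 1056 CPM in mCherry RNAi ovaries, also did not overlap and did not pass (0.46 ± 0.20, adjusted p = 0.102). Yp2 libraries overlapped (0.46 ± 0.28, adjusted p = 0.247). On the spike-in scale the yl change was -0.85 ± 0.35 and did not pass (adjusted p = 0.168).

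Germline knockdown with nos-Gal4 moved none of the 4 members past the threshold with edgeR or DESeq2, and none had an unadjusted edgeR p under 0.05. Of all features, 1.09% were called lower. Yp1 had 3767, 4491 and 5288 CPM in sov RNAi ovaries, against 4014, 4557 and 3345 CPM in mCherry RNAi ovaries, with wide overlap. The changes were 0.18 ± 0.26 for Yp1, 0.09 ± 0.28 for Yp2, 0.23 ± 0.19 for Yp3 and -0.12 ± 0.15 for yl. As given above, sov itself was not lower in those libraries.

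Somatic knockdown with tj-Gal4 gave lower yolk protein values in 2 of 3 libraries. Yp1 had 1391, 1503 and 3037 CPM in sov RNAi ovaries, against 2829, 3739 and 2337 CPM in mCherry RNAi ovaries. Yp2 had 1237, 1462 and 3012 CPM in sov RNAi ovaries, against 2752, 3750 and 2179 CPM in mCherry RNAi ovaries. For both genes replicates 1 and 2 of sov RNAi were below all mCherry RNAi libraries and replicate 3 was among them. Neither passed, at -0.58 ± 0.27 for Yp1 (edgeR adjusted p = 0.192) and -0.60 ± 0.28 for Yp2 (adjusted p = 0.204), with 2.53% of all features called lower. DESeq2 called none of the members either, and 2 of 4 had an unadjusted edgeR p under 0.05. Without sov RNAi replicate 3 the changes were -1.03 (adjusted p = 0.00681) and -1.09 (adjusted p = 0.00573), so that library decides both calls. Yp3 (-0.17 ± 0.19) and yl (-0.22 ± 0.15) did not pass. On the spike-in scale the median of all features was -1.36, and 7074 of 7700 features were called in either direction. All 4 members were called lower there, at -1.98, -2.0, -1.56 and -1.58, which does not set them apart from other features.

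Whether the drivers differed was tested directly. None of the 12 differences between driver effects (4 members in 3 pairs of drivers) passed with edgeR or DESeq2, and 4 of 12 had an unadjusted edgeR p under 0.05. Of all features, 4.87% were called in either direction between nos-Gal4 and tj-Gal4, 1.3% between da-Gal4 and nos-Gal4 and 10.7% between da-Gal4 and tj-Gal4. The nearest was Yp1 between da-Gal4 and tj-Gal4, at 1.16 ± 0.37 (edgeR adjusted p = 0.0539), and the difference for yl between the same drivers was -0.43 ± 0.21 (adjusted p = 0.203). The Yp1 difference passed when da-Gal4 mCherry RNAi replicate 1 (1.45, adjusted p = 0.0134), tj-Gal4 mCherry RNAi replicate 3 (1.30, adjusted p = 0.0381) or tj-Gal4 sov RNAi replicate 3 (1.61, adjusted p = 0.00325) was left out. Yp2 per Yp1 count lay between 0.811 and 1.07 in the 6 RNAi genotypes, below the 1.2 to 1.54 of the controls of the allele series. The RNAi stocks are not related to those controls by any comparison of the design, so no test was made.

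**Figure D4:**
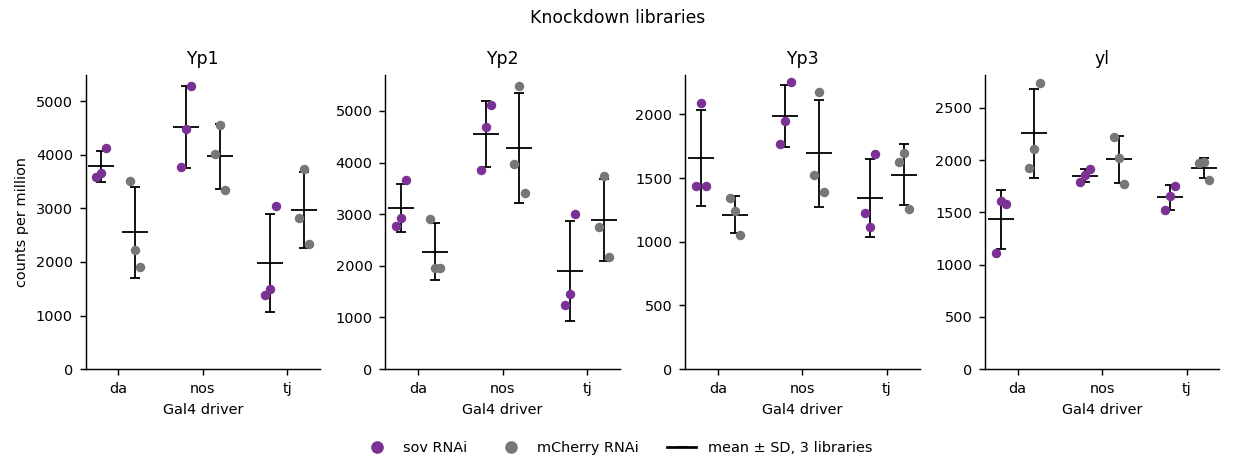
CPM of Yp1, Yp2, Yp3 and yl in each RNAi library by driver, with sov RNAi to the left of mCherry RNAi and bars at the mean ± SD of 3 libraries. The yl libraries of da-Gal4 sov RNAi (1111 to 1611 CPM) lie below those of da-Gal4 mCherry RNAi (1920 to 2737 CPM), and tj-Gal4 sov RNAi replicate 3 sits apart from the other 2 for Yp1 and Yp2.

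The genes whose pattern over the 30 genotypes was most like that of Yp1 were CG8303 (Pearson r = 0.943), the fatty acid elongase gene bond (0.942), the serine protease gene ndl of the dorsoventral patterning cascade (0.934), the vitelline membrane gene psd (0.932) and CG13992 (0.932), among 9252 features. Those most like yl were fs(1)N (0.933) and fs(1)M3 (0.915), both needed for patterning of the embryonic ends and for the eggshell, Iris (0.931), the Ran exchange factor gene Rcc1 (0.906) and the splicing factor gene Sf3b3 (0.882). By Spearman's rho the order near Yp1 was different, with CG8303 at rank 27 (0.756), ndl at 15 (0.785) and psd at 48 (0.724), while bond and CG13992 stood at 4 and 7. The genes named for yl held Spearman ranks of 1 to 11. None of the 5 genes nearest to Yp1 by Pearson r was among the 5 nearest to yl. Among the members, r was 0.976 for Yp1 with Yp2, 0.932 for Yp1 with Yp3, 0.908 for Yp2 with Yp3, 0.803 for Yp2 with yl, 0.731 for Yp1 with yl and 0.650 for Yp3 with yl. These coefficients describe log2 CPM over genotypes that share alleles, stocks and library scaling, and they carry no test.

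Other genes of the same stages and of the yolk pathway were read from lists. The vitelline membrane and chorion genes encode the eggshell and are made by follicle cells from yolk-forming stages onwards. In sterile mutants against controls, 12 of 13 vitelline membrane genes and 13 of 13 chorion genes fell, with median changes of -1.57 and -2.87 on the log2 scale against 0.00 over all features tested. Of all features, 19.8% were called lower there. Femcoat, an eggshell gene, was at -2.79 ± 0.63 and the chorion gene Cp7Fa at -3.14 ± 0.69. The changes of the yolk protein genes in the same fit, -1.46, -1.77 and -1.64, lay near the vitelline membrane median. This held for the class average and not in single genotypes. In sovML150/sov2, Dfsov/sov2, sovML150/KG00226, sovEA42/KG00226 and sovEA42/sov2 the vitelline membrane medians were -4.92, -4.75, -3.36, -2.50 and -2.24. Each was below the changes of all yolk protein genes given above. In Dfsov/KG00226 and NP6070/NP6070 the medians were -0.26 and 0.20, above those changes. In fertile mutants none of either list was called, with medians of -0.28 and -0.51 (1.35% of features called lower). With da-Gal4 none of the vitelline membrane or chorion genes was called (medians 0.55 and 0.30), and with tj-Gal4 1 of 13 vitelline membrane genes (Vm26Ac, -1.53 ± 0.39) and 5 of 13 chorion genes fell. Of all features, 11.0% were called lower with da-Gal4 and 2.53% with tj-Gal4. In NP6070/NP6070, the sterile genotype with Yp3 at the control level, the vitelline membrane genes summed to 24953 CPM (here per gene count total, without TMM scaling) and the chorion genes to 8444. In sovML150/sov2, they summed to 736 and 195 CPM. Over the controls the sums ran from 10943 to 30425 and from 16070 to 44611 CPM.

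**Figure D5:**
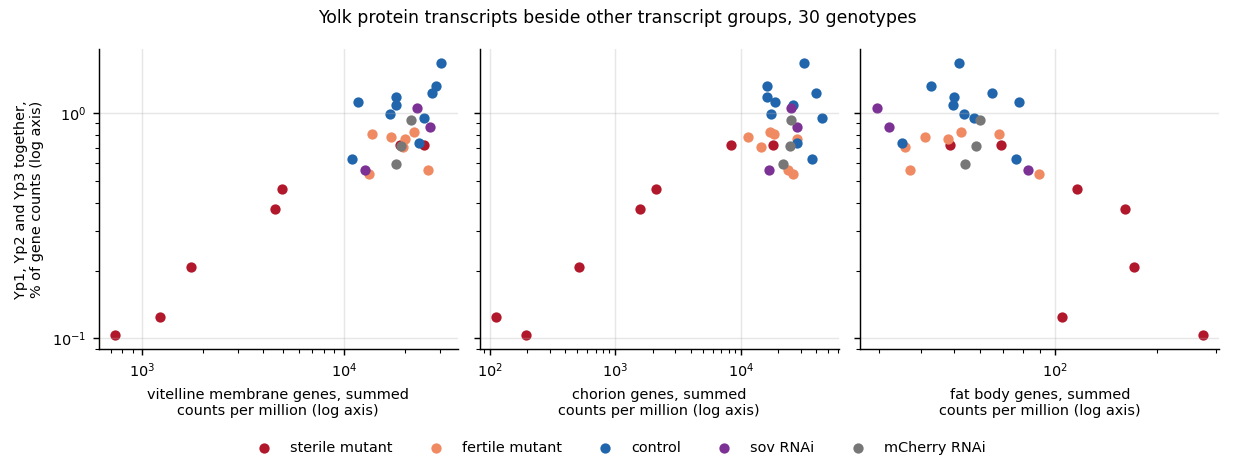
Share of gene counts from Yp1, Yp2 and Yp3 together, in percent, against the summed CPM (without TMM scaling) of vitelline membrane, chorion and fat body genes, 1 point per genotype for all 30 genotypes, on log axes. Yolk shares of sterile mutants extend down to 0.103%, where vitelline membrane genes sum to 736 CPM, while fat body genes are highest, at 274 CPM, in the same genotype.

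Among genes that act on yolk protein transcription, 16 of 17 could be tested, of which 1 rose and 3 fell in sterile mutants (median -0.06 on the log2 scale, against 0.00 over all features). Neither count exceeded the share of all features, of which 24.6% were called higher and 19.8% lower. The gene dsx, whose female product activates Yp1 and Yp2 in the fat body, rose by 1.76 ± 0.35 in sterile mutants (edgeR adjusted p = 0.000309). The gene also rose with da-Gal4 (1.72 ± 0.44) and tj-Gal4 (1.42 ± 0.36) and was not called with nos-Gal4 (-0.37 ± 0.46) or in fertile mutants (-0.27 ± 0.36). Tested directly, the driver effects on dsx did not differ past the threshold. The difference was -1.79 ± 0.59 between nos-Gal4 and tj-Gal4 (edgeR adjusted p = 0.0989). Between da-Gal4 and nos-Gal4 it was 2.10 ± 0.64 (adjusted p = 0.13). The C/EBP gene slbo, which acts in border cells and other follicle cells, fell by 1.18 ± 0.47 in sterile mutants and rose by 1.85 ± 0.42 with da-Gal4. The GATA factor gene srp, known for its role in the fat body and hemocytes, fell by 0.72 ± 0.17 in sterile mutants. The juvenile hormone receptor genes gce and Met fell by 0.92 ± 0.19 and 0.52 ± 0.12 with da-Gal4, and Met also fell by 0.53 ± 0.12 with nos-Gal4.

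The genes that fold the receptor and carry it to and from the oocyte surface changed little. Of 18, 1 rose and 2 fell in sterile mutants against controls, with a median of -0.02 and no change beyond -0.25 to 0.18. Both counts were below the shares of all features, 24.6% called higher and 19.8% lower. The gene boca, which encodes the chaperone for receptors of this family, was at -0.15 ± 0.07 and did not pass (edgeR adjusted p = 0.0661). The gene jagn, which encodes an endoplasmic reticulum protein needed in the oocyte for traffic to the membrane, fell by 0.15 ± 0.05 (adjusted p = 0.0131), and lqf, the fly epsin, rose by 0.18 ± 0.04. With da-Gal4, where yl fell, jagn fell by 0.30 ± 0.09 and Rab7 by 0.38 ± 0.12. Of the germline genes, 7 of 11 were called lower in sterile mutants, with a median of -0.18, beside -0.58 for yl and 19.8% of all features called lower. With da-Gal4, 5 of 11 were called lower (11.0% of all features), among them the germline RNA-binding protein gene orb by 0.85 ± 0.15 and grk by 0.89 ± 0.23.

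Markers of other tissues differed between the same classes. In sterile mutants against controls, 24.6% of all features were called higher and 19.8% lower. Muscle markers rose in 10 of 10 tests in sterile mutants (median 3.95), and their summed level ran from 794 to 15166 CPM in sterile mutants, against 625 to 817 CPM in controls. Hemocyte markers summed to 413 to 2736 CPM in sterile mutants, against 346 to 1140 CPM in controls, and 3 of 6 rose while 1 fell. Fat body, the other site of yolk protein synthesis, had 4 of 6 testable markers called higher and 1 lower, and its 11 markers summed to 48.8 to 274 CPM in sterile mutants, against 35.1 to 78.1 CPM in controls. The larval serum protein gene Lsp2 rose by 7.19 ± 0.97 and the transferrin gene Tsf1 by 4.54 ± 0.54, with no fat body marker at 0 over all sterile mutants and Fbp2 at 0 in the controls. Follicle cell markers summed to 700 to 1143 CPM in sterile mutants, against 651 to 1022 CPM in controls, and 5 of 9 fell while 2 rose, with tj at -1.44 ± 0.35 and Fas3 at 1.81 ± 0.29. With da-Gal4, where yl fell, 3 of 10 muscle markers rose (Mlc2 by 0.72 ± 0.24 and Tm2 by 0.71 ± 0.23 among them) and none of 7 hemocyte markers was called. Of 7700 features, 1622 were called with that driver in either direction, and 11.0% were called lower. Of 3 testable fat body markers 2 fell there, apolpp by 1.35 ± 0.42 and CG5966 by 0.76 ± 0.16, and the summed fat body level was 32.1 CPM in sov RNAi ovaries, against 54.2 CPM in mCherry RNAi ovaries. With tj-Gal4, where 912 of 7700 features were called in either direction, 9 of 10 muscle markers and 4 of 7 hemocyte markers rose. Tsf1, of the fat body list, rose by 3.43 ± 0.62. The 3 yolk protein genes together had their lowest share of gene counts, 0.103%, in sovML150/sov2, the genotype with the highest sum of fat body markers. Yp3 alone was lowest in Dfsov/sov2, at 139 CPM. The part of these tissues in the yolk gene values was not tested.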

How the data were processed

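PolyA RNA was sequenced from 90 samples, with 200 ng of total RNA and 10 pg of ERCC spike-in per stranded library, per the labels' protocols. The deposited values are raw counts per gene, transposable element family and spike-in, made by the authors with CASAVA 1.8.2, HISAT2 2.0.5 and HTSeq 0.7.2, per the submitters' processing notes. The strand and multi-mapping settings are not given in the sources used here. Of 17741 entries, 5 were counting summaries (12.55% to 63.09% of reads) and stayed out of library sizes and tests.

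Members and gene lists were chosen with earlier results of these data known. Positions and joined exon lengths came from the release 6 annotation. All features were tested with edgeR 4.0.16 in R 4.3.3 (TMM scaling, filterByExpr defaults, quasi-likelihood F test), and a feature was called where its Benjamini-Hochberg adjusted p over all features was under 0.05. Class tests treated each of 24 genotypes as a replicate, with its 3 libraries summed, although alleles recur within a class and the genotypes are thus not independent. RNAi tests used 18 libraries, and tests of single genotypes used 72 libraries with the equal-weight mean of 10 controls as reference. Ratios were tested with scipy 1.17.1. The text names the members, the 5 features with the highest Pearson r to Yp1 and to yl on log2(CPM + 1), and at most 2 genes per list and direction with the largest called change, plus sov, dsx, boca and jagn; EcR was the other regulator called in sterile mutants. The list symbols nos, oo18, Notch and nudel matched no entry. Alternatives were DESeq2 1.42.0 size factors and test, spike-in scaling, a spike-in pool term, no low-count filter, exclusion of libraries under 100000 counts, fits of only the classes compared, a replicate block and leaving out samples. Each fit was checked on simulated counts. Depth ran from 2110 to 13164806 gene counts, and errors reflect these samples only.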

Additional observations from a re-analysis of the deposited data

How the results depend on the processing

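The falls of all 4 members in sterile mutants against controls kept their direction and call under every alternative run, with log2 changes between -1.32 and -2.36 for Yp1 and between -0.47 and -1.81 for yl. DESeq2 size factors and the DESeq2 test changed no call in the class and RNAi comparisons, nor did a spike-in pool term in the RNAi comparisons, and no RNAi library was shallow enough to be left out. A replicate block changed no call. Of 9 same-numbered RNAi pairs, 3 had a correlation over 0.1, and 4 of 9 sov RNAi libraries correlated best with their own number. With da-Gal4 each sov RNAi library did so (0.313, 0.0415 and 0.139), and so few pairs cannot settle whether the numbers mark pairs. The block gave 0.57 for Yp1 and -0.65 for yl with da-Gal4 and 1631, 189 and 890 called features with da-Gal4, nos-Gal4 and tj-Gal4. Causes of the changes below were not tested.

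Spike-in scaling gave 0.27 for yl in fertile mutants against controls and -2.18 for Yp3 in sterile against fertile mutants, with or without libraries under 100000 counts (the combination was chosen after seeing the data). It gave -0.85 for yl with da-Gal4 and -1.98, -2.0, -1.56 and -1.58 for Yp1, Yp2, Yp3 and yl with tj-Gal4. Driver differences became 2.11, 2.03, 1.74 and 1.39 between nos-Gal4 and tj-Gal4, -0.05 for Yp3 between da-Gal4 and nos-Gal4, and 2.27, 2.21, 1.69 and 0.73 between da-Gal4 and tj-Gal4. Called features moved to 7600, 216 and 7605 in the sterile, fertile and sterile against fertile comparisons (7599, 210 and 7605 without shallow libraries), and to 443, 122 and 7074 with da-Gal4, nos-Gal4 and tj-Gal4. Of 7 member calls in single fertile genotypes 1 was left on that scale. Some fertile genotypes turned positive there, KG00226/NP6070 with 0.52, 0.37 and 0.48 for the yolk proteins (0.47, 0.32 and 0.44 without shallow libraries) and yl called higher at 0.93 (0.89), KG00226/sov2 with 0.30, 0.21, 0.52 and 0.59 for all members (0.25, 0.16, 0.47 and 0.55), sov2/KG00226 with 0.01 for Yp3, and yl in KG00226/KG00226 with 0.10 (0.06), NP6070/KG00226 with 0.16 (0.12) and sov2/NP6070 with 0.03.

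With no low-count filter, Yp1, Yp2 and Yp3 passed with da-Gal4 (0.57, 0.45 and 0.45), Yp1 and Yp2 with tj-Gal4 (-0.59 and -0.61), and the driver differences from tj-Gal4 passed for nos-Gal4 (0.77 and 0.69) and da-Gal4 (1.16, 1.06 and 0.63 for Yp3), while 5853, 4696 and 449 features were called in sterile mutants against controls, in sterile against fertile mutants and with nos-Gal4. Fits of 2 classes gave -0.62 and -0.76 for Yp1 and Yp2 in fertile mutants (583 features called) and -0.82, -1.0 and -0.45 for Yp1, Yp2 and yl in sterile against fertile mutants. Averaging Yp1 per yl over libraries gave -0.42 in fertile mutants.

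Leaving out 1 genotype gave -1.09 to -0.69, -1.24 to -0.83, -1.45 to -0.78 and -0.55 to -0.35 for Yp1, Yp2, Yp3 and yl in sterile against fertile mutants, and 215 to 325 called features in fertile mutants against controls (332 with all). Ratios of sterile to fertile mutants ran over -0.38 to -0.18 (Yp2 per Yp1), -0.01 to 0.24 (Yp3 per Yp2), -0.81 to -0.48, -1.16 to -0.75 and -1.13 to -0.58 (Yp1, Yp2 and Yp3 per yl), and of fertile mutants to controls over -0.18 to -0.12 (Yp2 per Yp1), -0.14 to 0.03 (Yp3 per Yp1), -0.00 to 0.19 (Yp3 per Yp2), -0.54 to -0.38 (Yp1 per yl) and -0.67 to -0.38 (Yp3 per yl). Leaving out 1 RNAi library gave 0.41 to 0.87 for Yp1 with da-Gal4, -0.06 to 0.30 for Yp2 with nos-Gal4, -1.03 to -0.38 and -1.09 to -0.36 for Yp1 and Yp2 with tj-Gal4, 0.56 to 1.21 and 0.45 to 1.18 for the nos-Gal4 and tj-Gal4 difference, 0.96 to 1.61 and 0.83 to 1.55 for that of da-Gal4 and tj-Gal4, and 944 to 1974 and 121 to 158 called features with da-Gal4 and nos-Gal4 (1622 and 202 with all). Leaving out 1 replicate number in the genotype fit gave 21 to 25 member calls in place of 29, and values on both sides of 0 for yl in KG00226/NP6070 (-0.05 to 0.13), KG00226/KG00226 (-0.10 to 0.07) and NP6070/KG00226 (-0.28 to 0.11) and for Yp3 in NP6070/NP6070 (-0.14 to 0.17). Depth limits mainly the 3 shallow libraries, in which a member had 2 to 123 counts.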

Other observations

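Yp1 supplied 35.9% to 52.1% of the counts of the 3 yolk protein genes in sterile mutants (median 43.0%), 35.3% to 40.9% in fertile mutants (37.7%) and 33.7% to 38.7% in controls (35.25%). Yp2 supplied 29.0% to 49.0% in sterile mutants (median 41.6%), 42.5% to 48.8% in fertile mutants (44.6%) and 43.1% to 53.4% in controls (46.5%). Yp3 supplied 10.7% to 23.0% in sterile mutants (18.9%), 10.7% to 19.6% in fertile mutants (17.4%) and 12% to 22.5% in controls (16.75%). In the RNAi ovaries Yp1 supplied 38.0% to 44.6% with sov RNAi and 40.0% to 42.3% with mCherry RNAi, and Yp3 supplied 25.2% at most with sov RNAi and 20.9% at most with mCherry RNAi. No test was made of these shares.

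Per 100 spike-in counts, the levels of the members spread more widely than as shares of library RNA. Yp1 ran from 56.2 in sovML150/sov2 through a median of 359 to 1418 in NP6070/NP6070 among sterile mutants, against 1173, 2255 and 3876 among controls, the lowest of which was NP6070/w1118. Yp3 ran from 15.4 in Dfsov/sov2 through 123 to 894 in sterile mutants, against 657, 947 and 1913 in controls. The receptor yl ran from 83.6 through 447 to 792 in sterile mutants, against 605, 1298 and 1983 in controls. Yp2 ran from 31.3 through 432 to 1582 in sterile mutants, against 1494, 2930 and 4644 in controls. On this scale the classes thus overlapped at their edges for each of these genes, Yp2 included, whose genotype sums did not overlap in CPM. Fertile mutants stood at 1342, 1915 and 3151 for Yp1 and at 1060, 1383 and 2345 for yl, within the spread of the controls apart from the highest yl value, that of KG00226/NP6070.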
